A study of Danio rerio with 24 samples.

Results

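hsd11b2 and fkbp5 are genes of the cortisol system, and both were measured in wild-type (WT) zebrafish and in the young (yng) mutant, in dissected retinas and in whole embryos. hsd11b2 encodes 11β-hydroxysteroid dehydrogenase type 2, which oxidizes cortisol to cortisone, and fkbp5 encodes a co-chaperone of the glucocorticoid receptor. Their probe sets were found by the gene symbol in the platform annotation. They are 2 of 8793 annotated gene symbols, and each had a single probe set among the 15502 tested. Both genes were chosen by their yng minus WT differences in intensity on these same arrays. Those differences are therefore given as values without a test. Changes with age and differences between tissues were tested, but on the same arrays that chose the genes. Groups that stood high or low in the genotype comparisons recur in these tests, so their adjusted p-values are not free of that choice.

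Cortisol is the main glucocorticoid of teleost fish. It enters cells and binds the glucocorticoid receptor, encoded by nr3c1, which is held ready by a complex of Hsp90 and co-chaperones that includes the Fkbp4 and Fkbp5 immunophilins. In mammals and in fish, transcription of fkbp5 is raised by the activated receptor, and the Fkbp5 protein lowers the receptor's affinity for hormone, so that the gene serves as a readout of receptor activity and as a brake on it. The Hsd11b2 enzyme acts before the receptor, and limits how much active cortisol reaches it.

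The yng mutation lies in smarca4a, or brg1, the gene of a chromatin remodelling ATPase of the SWI/SNF complex. RNA was hybridized to 24 Affymetrix zebrafish arrays of one colour, which form 8 groups of 3 from 2 genotypes, 2 tissues and 2 ages, 36 and 52 hours post fertilization (hpf). The groups were WT retina, yng retina, WT embryo and yng embryo at each age, and the labels name no agent given to any group. All fish were of strain AB, except that the labels do not state the strain of WT embryo 36 hpf replicate 1. A WT or yng embryo array held RNA of 10 pooled whole embryos, and a retina array that of 10 pooled retinas, except that each yng retina pool at 36 hpf held 20. The labels state that mutants were staged by their wild-type siblings. The RNA input was 33 ng, amplified in 2 cycles. Whole embryos include the eyes, and in such bulk samples fewer expressing cells and less RNA per cell cannot be told apart.

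The smarca4a transcript, which checks the genotype labels, was lower in every yng array. Its brighter probe set ranged from 3134 to 4158 in WT and from 757 to 1251 in yng. The tissue labels were checked with marker genes. The summed intensity of 15 muscle markers was 122248 to 136055 in embryos and 471 to 933 in retinas, and that of 17 retinal markers was 9638 to 18015 in embryos and 25228 to 49761 in retinas. Array medians were 223.3 to 240.7 in embryos and 145.3 to 165.3 in retinas, and arrays within a group correlated at 0.9722 or above. WT and yng arrays were washed on different fluidics stations throughout, and a station effect cannot be told apart from genotype. The fluidics module likewise went with each combination of tissue and age, and cannot be told apart from them. The number of arrays limits the precision.

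Levels are the deposited probe set intensities, on a linear scale in arbitrary units. Differences are log2 differences of quantile-normalized intensity with an offset of 16, given ± SE of the model, with n = 3 arrays per group. The adjusted p is limma's, with Benjamini-Hochberg adjustment over all 15502 probe sets of a comparison and a threshold of 0.05.

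The yng samples of either tissue and age held less hsd11b2 signal than their WT counterparts, and the gap was widest in the retina. In WT retinas at 36 hpf the 3 arrays read 78.5, 142 and 74.3, and in yng retinas 7.67, 15.1 and 6.61. At 52 hpf the WT retinas read 324, 262 and 198, and the yng retinas 30.7, 33.6 and 37.7. The groups did not overlap at either age, and WT replicate 2 stood above its group at 36 hpf. No detection calls were used here, so how far the yng retina values at 36 hpf stood above background is unknown.

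In whole embryos hsd11b2 kept more of its WT level. At 36 hpf the WT embryos read 235, 245 and 195, and the yng embryos 90.7, 76.6 and 79. At 52 hpf the WT embryos read 308, 362 and 269, and the yng embryos 139, 111 and 104. The genotypes again did not overlap at either age. Mean yng intensity was 36.4% of the WT mean at 36 hpf and 37.7% at 52 hpf in embryos, against 9.95% and 13% in retinas.

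On the normalized scale the yng minus WT difference of hsd11b2 in retinas was -2.08 ± 0.19 at the younger age and -2.48 ± 0.19 at the older. In embryos it was -1.26 ± 0.19 and -1.25 ± 0.19. The retina difference minus the embryo difference was -0.82 ± 0.27 at 36 hpf and -1.23 ± 0.27 at 52 hpf. Each hybridization day that held both genotypes gave the same sign, with values from -2.85 to -1.90 in retinas and from -1.53 to -0.99 in embryos. At low intensity these values depend on the offset: with offset 64 the retina difference at 36 hpf was -1.22, and with offset 1 it was -2.80.

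fkbp5 had the opposite layout, with its widest genotype gap in whole embryos. At 36 hpf the WT embryos read 648, 489 and 667, and the yng embryos 80.5, 87.6 and 74.2. At 52 hpf the WT embryos read 487, 396 and 542, and the yng embryos 111, 101 and 99.7. The lowest WT embryo array was above every yng embryo array. Mean yng intensity was 13.4% of the WT mean at 36 hpf and 21.9% at 52 hpf.

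In retinas fkbp5 differed less between the genotypes. At 36 hpf the WT retinas read 70.6, 123 and 81.3, and the yng retinas 78.9, 61.5 and 79.1, so that the genotypes overlapped. At 52 hpf the WT retinas read 132, 190 and 279, and the yng retinas 113, 97.5 and 111. These did not overlap, but WT replicate 1 lay close to the yng arrays. The yng embryos, from 74.2 to 111, thus lay in the same range of deposited intensity as the yng retinas, from 61.5 to 113.

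**Figure D1:**
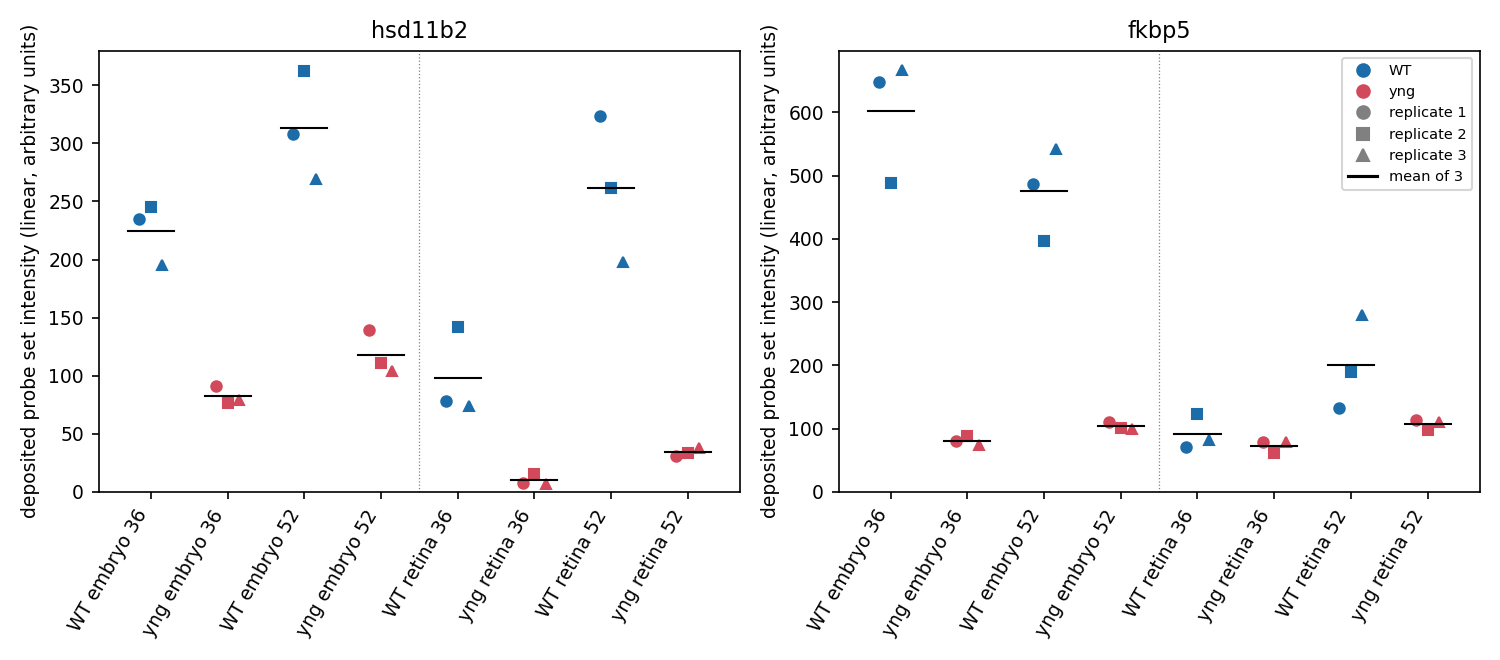
Deposited probe set intensity (linear scale, arbitrary units) of hsd11b2 and fkbp5 in each of the 24 arrays, by genotype, tissue and age in hpf, with replicates 1 to 3 as separate symbols and the mean of 3 as a line. hsd11b2 is lowest in yng retinas, while fkbp5 is highest in WT embryos and lies at 61.5 to 113 in all 4 yng groups.

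The yng minus WT difference of fkbp5 in embryos was -2.65 ± 0.21 at the younger age and -1.99 ± 0.21 at the older. In retinas it was -0.30 ± 0.21 and -0.76 ± 0.21. The difference in retinas minus that in embryos was 2.34 ± 0.29 at 36 hpf and 1.23 ± 0.29 at 52 hpf, opposite in sign to that of hsd11b2. Within hybridization days the embryo difference ranged from -2.86 to -1.76. In retinas at 36 hpf the 3 days gave 0.04, -0.91 and -0.03, so the mean there came mostly from day 2, and without WT retina 36 hpf replicate 2 the difference was -0.11. In retinas at 52 hpf the days gave -0.15, -0.95 and -1.18.

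As background to these gaps, all 3 yng arrays lay below all 3 WT arrays in 9.41% of probe sets in retinas at 36 hpf and 15.4% at 52 hpf. The shares were 11.7% and 10.8% in embryos at the same ages. hsd11b2 was among the 268 probe sets, 1.73% of those tested, that lay lower without overlap in all 4 comparisons, and fkbp5 was not because of the retinas at 36 hpf. The genotype comparisons chose these genes, so nothing is read from their place there.

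**Figure D2:**
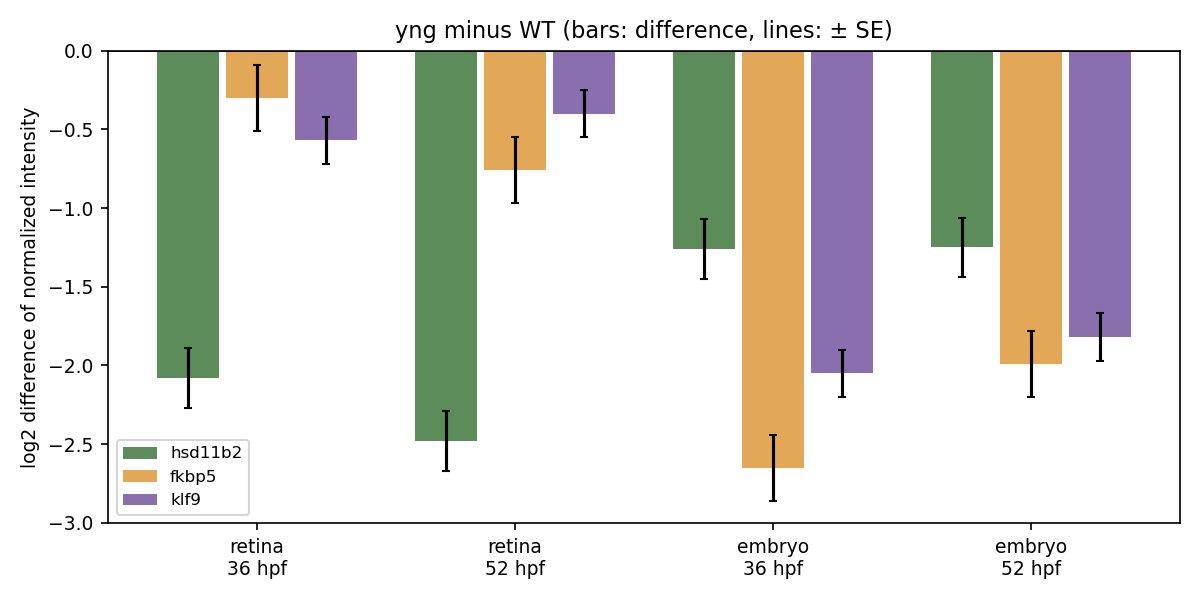
Bars give the yng minus WT log2 difference of normalized intensity in each tissue and age, with lines of ± SE (n = 3 arrays per group), for hsd11b2, fkbp5 and klf9. hsd11b2 runs from -2.48 to -1.25 with the wider differences in retinas, and fkbp5 and klf9 are widest in embryos.

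RNA integrity and cell type markers were set beside these values. The log2 ratio of the control probe sets for the 3′ and 5′ ends of Gapdh, which rises with RNA degradation, was 2.36 to 3.56 over all arrays. It differed by -0.208 between yng and WT retinas at 36 hpf and by 0.382 at 52 hpf. In embryos the difference was 0.0875 at 36 hpf and 0.266 at 52 hpf, and the ranges of the genotypes overlapped in all 4 comparisons. Set against the WT array of the same replicate number, however, yng was higher in each of the 3 pairs in retinas at 52 hpf (0.51, 0.33 and 0.30), in embryos at 36 hpf (0.19, 0.06 and 0.01) and in embryos at 52 hpf (0.40, 0.17 and 0.22, the last across days). In retinas at 36 hpf the pairs gave -0.46, 0.02 and -0.19. The part of RNA quality in the hsd11b2 and fkbp5 values was not tested. Mammalian HSD11B2 is known from ion-transporting epithelia such as the kidney tubule, and the fish counterparts are ionocytes and pronephros. The summed intensity of 5 ionocyte markers was 6516 to 6882 in WT embryos and 5450 to 5787 in yng embryos at 36 hpf. At 52 hpf it was 6543 to 7375 in WT embryos and 4450 to 4750 in yng embryos. Only 1 of the 5 passed the test in embryos, against 5.95% of all probe sets at 36 hpf and 5.9% at 52 hpf. It was ca2, a carbonic anhydrase, with -0.84 (adjusted p = 1.38e-05) at 52 hpf. Most of the sum is ca2, whose mean was 5487 in WT and 4306 in yng embryos at 36 hpf, and 5812 and 3274 at 52 hpf. The other 4 did not pass; slc4a4b, a bicarbonate transporter gene, was at 0.32 and 0.35 and atp1a1a.4, a sodium pump gene, at 0.09 and 0.18. No ionocyte marker was at 0 in every array of a group, but slc4a4b and slc12a3 read alike in WT embryos and WT retinas. Their means at 36 hpf were 190 and 49.3 in embryos, and 186 and 49.5 in retinas. Their levels are thus not particular to embryos, and may not reflect ionocytes. The part of ionocytes in the embryo values was not tested. The 7 pronephros markers summed to 2882 to 2974 in WT and 2946 to 3459 in yng embryos at 36 hpf, and to 2532 to 2756 and 2891 to 3413 at 52 hpf. Single markers went both ways in embryos, with slc20a1a at -0.59 and -0.41 and podxl at 0.43 and 0.33. By limma 0 of the 7 passed in embryos at either age, against 5.95% and 5.9% of all probe sets. Means of pax2a, pax8 and clcnk at 36 hpf were 258, 51.4 and 301 in WT embryos, and 274, 55.7 and 296 in WT retinas. Their levels are thus not particular to embryos either. In retinas the genotypes did not overlap in the pronephros sum, at 890 to 1008 in WT and 1268 to 1621 in yng at 36 hpf, and 551 to 619 and 686 to 733 at 52 hpf. pax2a, a transcription factor gene also used in the developing eye, was higher in yng retinas by 1.30 (adjusted p = 0.000453) and 1.45 (adjusted p = 4.97e-05). pax8 was higher at 36 hpf, with 0.94 (adjusted p = 0.0162), and did not pass at 52 hpf, with 0.37. podxl was lower at both ages, with -0.58 and -0.53.

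Among the retinas the ionocyte markers summed to 533 to 1143 in WT and 564 to 1164 in yng. The 17 retinal markers summed to 26121 to 27689 in WT and 25228 to 28852 in yng retinas at 36 hpf, and to 45206 to 49761 and 37811 to 40766 at 52 hpf. In yng retinas 4 of these 17 were higher and 2 lower at 36 hpf, where 9.08% of all probe sets passed, and 6 were lower and 0 higher at 52 hpf, where 19.7% did. The 4 higher at 36 hpf were rx2 (0.63), rx3 (0.97), six3a (0.45) and six6a (0.90). The 2 lower at 36 hpf were isl1a (-1.93, adjusted p = 4.48e-08) and gap43 (-2.25, adjusted p = 4.81e-08), genes of differentiating retinal neurons. Other neuronal genes of the list did not pass there, among them pou4f2 (-0.27), neurod1 (0.27), neurod4 (0.33) and crx (0.26). In yng embryos 3 of the 17 were higher at 36 hpf, among them the photoreceptor factor gene crx (1.60, adjusted p = 1.84e-06), and 2 were lower at 52 hpf, where 5.95% and 5.9% of all probe sets passed. Their part in the hsd11b2 and fkbp5 values was not tested. The 5 pituitary markers measured summed to 228 to 483 over all arrays.

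Markers of other tissues also differed between the genotypes in retinas, and their counts stand against the same 9.08% and 19.7% of all probe sets at 36 and 52 hpf. The 5 lens markers measured summed to 125 to 159 in WT and to 425 to 3659 in yng retinas at 52 hpf, where 4 of 5 were past the threshold as higher in yng. At 36 hpf they summed to 375 to 749 in WT and 378 to 2315 in yng retinas, with adjusted p from 0.146 to 0.972 for the single markers. The 7 pigment cell markers summed to 697 to 864 in WT and 894 to 1313 in yng retinas at 52 hpf, with 2 higher in yng. Of 11 blood markers 4 were lower in yng retinas at 36 hpf, with sums of 3441 to 5402 in WT and 2214 to 3825 in yng, and 2 at 52 hpf. Of 12 liver, gut and yolk markers 6 were lower in yng retinas at 52 hpf, with sums of 931 to 1188 and 591 to 671. The 13 skin and skeleton markers summed to 48663 to 56165 in WT and 45593 to 49138 in yng embryos at 36 hpf. There 1 was lower in yng, against 5.95% of all probe sets. At 52 hpf the embryo sums did not overlap, at 56597 to 62222 in WT and 52529 to 54395 in yng. There 0 markers passed, against 5.9%. The part of these cells in the hsd11b2 and fkbp5 values was not tested.

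The rise with age was tested in each genotype and tissue. hsd11b2 rose from 36 to 52 hpf in retinas of both genotypes. The difference was 1.18 ± 0.19 in WT (adjusted p = 4.75e-05) and 0.77 ± 0.19 in yng (adjusted p = 0.00444), and all arrays of 52 hpf lay above those of 36 hpf in both genotypes, as for 18.2% of probe sets in WT and 17.1% in yng. Within days the rise was 0.74 to 1.63 in WT and 0.44 to 1.05 in yng. With offset 64 the yng value was 0.36 (adjusted p = 0.0679), which did not pass the threshold. The rise in yng retinas started from the lowest level of any group and ended, at 30.7 to 37.7, below the WT retinas of 36 hpf.

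fkbp5 rose with age in WT retinas by 0.87 ± 0.21 (adjusted p = 0.00195). Days 1, 2 and 3 gave 0.59, 0.51 and 1.51. The arrays of the 2 ages did not overlap as deposited. On the normalized log2 scale they did, with 7.44 for replicate 2 at 36 hpf and 7.41 for replicate 1 at 52 hpf. A fit with only these 2 groups gave an adjusted p of 0.0508 for the same difference. In yng retinas the difference was 0.41 ± 0.21 (adjusted p = 0.157), with 0.36 to 0.48 within days. It was not past the threshold, and its difference from the WT change, -0.46 ± 0.29, was not tested because it holds the genotype comparison. For that difference 4.11% of all probe sets passed.

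In whole embryos neither gene passed the test with age. hsd11b2 differed by 0.39 ± 0.19 in WT (adjusted p = 0.217) and by 0.39 ± 0.19 in yng (adjusted p = 0.272). All its arrays of 52 hpf lay above those of 36 hpf in both genotypes, as for 14.4% of probe sets in WT and 12.4% in yng, and the days gave 0.26 and 0.48 in WT and 0.53, 0.39 and 0.26 in yng. fkbp5 differed by -0.38 ± 0.21 in WT (adjusted p = 0.256) and by 0.27 ± 0.21 in yng (adjusted p = 0.546), where its arrays did not overlap either and the days gave 0.39, 0.12 and 0.29. Day 4 held a single array, WT embryo 52 hpf replicate 3, so 2 days compare the ages in WT embryos, and they gave -0.54 and -0.35 for fkbp5.

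These calls stand against many others. Of all probe sets 36.9% were past the threshold with age in WT retinas, 16.1% as higher, where both genes rose. In yng retinas 25.6% were past it, 12.2% as higher, where hsd11b2 alone of the pair passed. In embryos the shares were 14.3% in WT and 8.83% in yng. The Gapdh log2 ratio differed with age by -0.419 in WT retinas and by 0.171 in yng retinas, and by -0.251 and -0.073 in WT and yng embryos. In WT retinas replicates 1, 2 and 3 read 3.34, 3.16 and 2.79 at 36 hpf and 2.70, 2.97 and 2.36 at 52 hpf. In yng retinas they read 2.88, 3.18 and 2.60, then 3.21, 3.30 and 2.66. Its part in the changes with age was not tested.

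**Figure D3:**
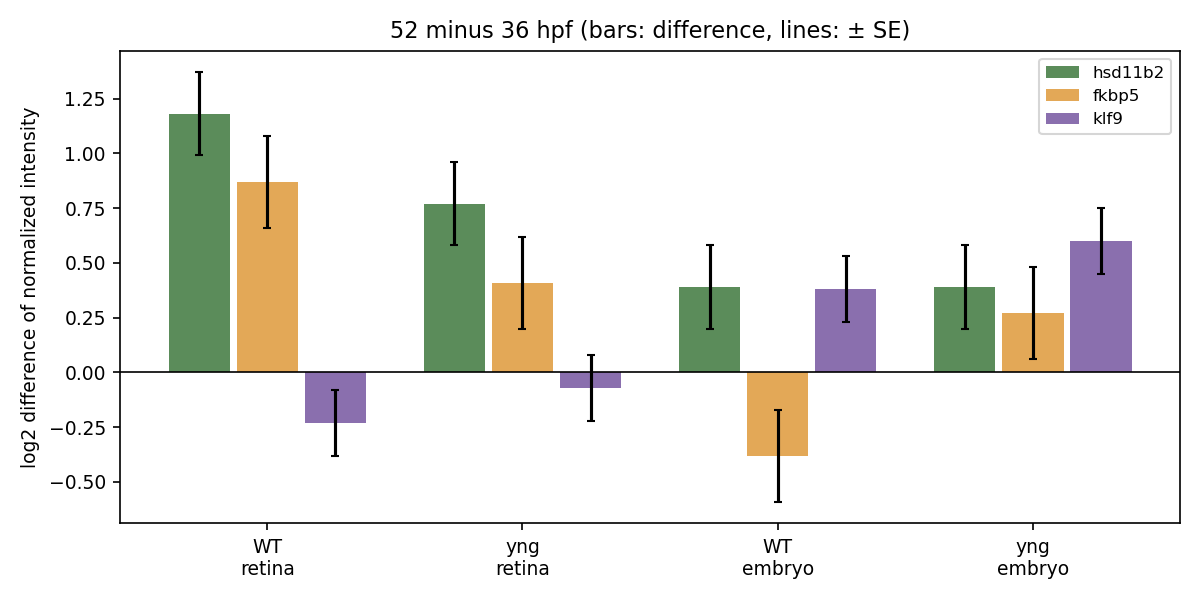
Bars give the 52 minus 36 hpf log2 difference of normalized intensity with lines of ± SE (n = 3 arrays per group) for hsd11b2, fkbp5 and klf9 in WT and yng retinas and embryos. In WT retinas hsd11b2 (1.18) and fkbp5 (0.87) are above 0, while fkbp5 in WT embryos is at -0.38.

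Whether the change with age differed between retina and embryo was tested within each genotype. For fkbp5 in WT the change in retinas exceeded that in embryos by 1.25 ± 0.29 (adjusted p = 0.00538), where 12.2% of all probe sets were past the threshold, 6.91% in that direction. For hsd11b2 in WT it was 0.79 ± 0.27 (adjusted p = 0.0642), which passed with the hybridization day (adjusted p = 0.0418) or the replicate number (adjusted p = 0.0207) as a block and as deposited (adjusted p = 0.0441). In yng the values were 0.15 ± 0.29 for fkbp5 (adjusted p = 0.893) and 0.38 ± 0.27 for hsd11b2 (adjusted p = 0.551), where 9.49% of all probe sets passed.

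The tissues were compared within each genotype and age. Retina and embryo arrays differ in their overall level. Quantile normalization puts the median probe set 0.37 to 0.40 higher in retina than in embryo, against -0.08 to -0.02 as deposited, and tissue differences are read against that shift. The test is of the difference from 0. It passed for 73.6% and 70% of all probe sets in WT at 36 and 52 hpf, and for 75.1% and 73.7% in yng, so a call here is common. Those lower in retina were 22.4% and 20.2% in WT and 23.2% and 22.5% in yng, and 51.2% were higher in yng at 52 hpf. The Gapdh log2 ratio in retina minus that in embryo was -0.0369 and -0.205 in WT at these ages. In yng it was -0.333 and -0.0888.

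fkbp5 was lower in retina than in embryo in WT at both ages. The difference was -2.0 ± 0.21 at 36 hpf (adjusted p = 3.62e-08), or -2.39 relative to the median probe set. At 52 hpf it was -0.75 ± 0.21 (adjusted p = 0.00315), or -1.12 relative to the median, and -0.49 without WT retina 52 hpf replicate 1 (adjusted p = 0.0338). Days 1 and 2 gave -1.29 and -0.45 there, and -2.42 and -1.32 at 36 hpf. In yng the differences were 0.34 ± 0.21 at 36 hpf (adjusted p = 0.137) and 0.49 ± 0.21 at 52 hpf (adjusted p = 0.0387), which are -0.06 and 0.09 relative to the median. As deposited they were -0.12 (adjusted p = 0.635) and 0.04 (adjusted p = 0.897), and the arrays of the tissues overlapped, so the call at 52 hpf rests on the scaling. That call was also lost without either of yng embryo 52 hpf replicates 2 and 3 or either of yng retina 52 hpf replicates 1 and 3, with differences from 0.44 to 0.57 when single arrays were left out.

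hsd11b2 was lower in retina than in embryo in yng at both ages. The difference was -1.38 ± 0.19 at 36 hpf (adjusted p = 2.29e-06) and -1.0 ± 0.19 at 52 hpf (adjusted p = 0.000112). Relative to the median probe set these are -1.78 and -1.40. In WT it was -0.56 ± 0.19 at 36 hpf (adjusted p = 0.0128), or -0.95 relative to the median, and -1.12 as deposited (adjusted p = 4.61e-05). That call was lost without WT retina 36 hpf replicate 1 or 3 and in a fit of these 2 groups alone (adjusted p = 0.0549), and the difference was -0.82 without replicate 2 and -0.40 without replicate 3. At 52 hpf in WT hsd11b2 stood at 0.23 ± 0.19 (adjusted p = 0.293) and at -0.26 as deposited (adjusted p = 0.291).

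Ordered by mean deposited level, hsd11b2 ran from WT embryo 52 hpf through WT retina 52 hpf, WT embryo 36 hpf, yng embryo 52 hpf, WT retina 36 hpf, yng embryo 36 hpf and yng retina 52 hpf to yng retina 36 hpf. Arrays of neighbouring groups overlapped among the first 3, and again from yng embryo 52 hpf to yng embryo 36 hpf, while the last 2 groups stood apart. For fkbp5 the order was WT embryo 36 hpf, WT embryo 52 hpf, WT retina 52 hpf, yng retina 52 hpf, yng embryo 52 hpf, WT retina 36 hpf, yng embryo 36 hpf and yng retina 36 hpf. The WT embryos of both ages overlapped each other, WT retinas at 52 hpf stood apart, and each of the last 5 groups overlapped the next. On the normalized scale WT retina 52 hpf came first for hsd11b2, and yng embryo 36 hpf came last for fkbp5. There the fkbp5 arrays of WT retina 52 hpf overlapped those of WT embryo 52 hpf.

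The rest of the cortisol system was described from 5 lists of 105 genes, of which 63 were measured besides hsd11b2 and fkbp5. The lists were chosen with earlier results of these data known, and each gene was read from its brightest probe set. All probe sets include dimmer ones and those without a symbol. They are an unlike base for the shares below, and no excess is read from the counts. Between yng and WT, 9 of the 63 (14.3%) were past the threshold in retinas at 36 hpf, 3 higher and 6 lower, against 9.08% of all probe sets. At 52 hpf 15 (23.8%) were, 11 higher and 4 lower, against 19.7%. In embryos 11 (17.5%) were at 36 hpf, 6 higher and 5 lower, against 5.95%, and 8 (12.7%) at 52 hpf, 5 higher and 3 lower, against 5.9%. The median difference of the 63 was 0.04, 0.09, -0.06 and -0.01 in that order, against 0.02, 0.04, 0.01 and 0.01 over all probe sets. Apart from retinas at 52 hpf the counts were not stable. In retinas at 36 hpf 4 passed without WT replicate 1, 0 with only the compared groups in the fit and 14 with the replicate block; in embryos 6 passed at 36 hpf without WT replicate 3, and 4 to 5 at 52 hpf without any one compared array.

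The other enzymes that inactivate or convert cortisol did not pass in any of the 4 comparisons. Of 11 genes listed 4 were measured besides hsd11b2: hsd11b1la, an 11β-dehydrogenase of the type 1 group, hsd20b2, which reduces cortisone further in zebrafish, and the 5α-reductases srd5a2a and srd5a3. By limma 0 of 4 passed in each comparison, and at an unadjusted p under 0.05 the count was 1 in retinas at 52 hpf and 0 elsewhere. Their differences ran from -0.18 to 0.42, both for hsd11b1la. The hydroxysteroid dehydrogenase family gave a further gene that was lower everywhere, hsd17b4, a peroxisomal enzyme of fatty acid oxidation. It fell by 0.81 and 0.99 in yng retinas at 36 and 52 hpf, and by 0.68 and 0.74 in yng embryos (adjusted p from 6.57e-07 to 0.000332). Its second, dimmer probe set did not follow, with -0.26 to 0.05 and no call. hsd17b12a, an enzyme of fatty acid elongation, rose by 1.07 (adjusted p = 5.86e-05) in retinas at 52 hpf. Of 14 family members measured besides hsd11b2, 1, 4, 2 and 2 passed in retinas at 36 and 52 hpf and embryos at 36 and 52 hpf, in that order. Over all probe sets 9.08%, 19.7%, 5.95% and 5.9% passed, which also stand beside the 0 of 4 above.

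Genes of cortisol synthesis were compared in the same way. Of 17 genes listed 9 were measured, and 0, 3, 2 and 2 passed in the same order of comparisons, with 0 at an unadjusted p under 0.05 in retinas at 36 hpf. These counts, and those of the stress axis below, stand against 9.08%, 19.7%, 5.95% and 5.9% of all probe sets. cyp17a1, a steroid hydroxylase gene, read 547 to 627 in WT and 201 to 350 in yng embryos at 36 hpf and fell by 1.05 there (adjusted p = 0.000388). In retinas at 52 hpf it read 6.18 to 16.7 in WT and 42.9 to 62.9 in yng, with a difference of 1.35 (adjusted p = 3.54e-06). The WT retina level is not shown to be above background, and the size of that difference depends on the offset. Its probe set is of the type that may detect several transcripts, so its identity is uncertain, and the dimmer probe set of cyp17a1 gave -0.64 (adjusted p = 0.0177) and 0.17 (adjusted p = 0.537) in these comparisons. At 52 hpf in embryos it was -0.69 (adjusted p = 0.0135), a call lost without WT replicate 1 or yng replicate 1 or 2. hsd3b7, an enzyme known in mammals for bile acid synthesis, rose by 0.98 in yng embryos at 36 hpf (adjusted p = 0.00491). This gene lies on the chromosome of smarca4a in the GRCz12tu assembly. cyp11a1.1, which starts steroid synthesis from cholesterol, was at 0.44 (adjusted p = 0.0323) and its electron donor fdx1 at 0.41 (adjusted p = 0.0359) in retinas at 52 hpf, where cyp11a1.1 was dim, with 23.2 to 34.9 in WT and 39.6 to 54.1 in yng. The former call was lost without WT replicate 1 or 2 or yng replicate 1 or 3, and the latter without any of the 6 arrays compared but yng replicate 2. Of the stress axis above the interrenal gland, 5 of 17 were measured, uts1, pomca, mc2r, avp and oxt. By limma 0 of 5 passed in each comparison, against 1, 0, 0 and 2 at an unadjusted p under 0.05.

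The receptor itself did not pass. nr3c1 was at 0.22 (adjusted p = 0.255) and 0.05 (adjusted p = 0.853) in retinas and at 0.24 (adjusted p = 0.247) and 0.13 (adjusted p = 0.66) in embryos at 36 and 52 hpf. Its other probe sets lay between -0.13 and 0.32 and did not pass either. The mineralocorticoid receptor gene nr3c2 was not analysed here. Among 15 receptor and chaperone genes besides fkbp5, 2, 4, 2 and 1 passed in the order above, against 9.08%, 19.7%, 5.95% and 5.9% of all probe sets. fkbp4, the other Hsp90 co-chaperone of steroid receptors in the Fkbp family, rose by 0.58 in yng retinas at 52 hpf (adjusted p = 0.00104). In yng embryos at 52 hpf it was at 0.49 (adjusted p = 0.0137), a call lost without WT replicate 2 or yng replicate 1. The direction of fkbp4 was thus opposite to that of fkbp5 in both tissues at 52 hpf. hsp90aa1.2, an Hsp90 gene, fell by 0.73 in yng retinas at 36 hpf (adjusted p = 0.0017), while its dimmer probe set was at -1.03 (adjusted p = 0.0659). dnajb1b, an Hsp40 co-chaperone, rose by 0.83 in yng retinas at 52 hpf (adjusted p = 0.00103). dnaja1, another Hsp40 gene, fell by 0.58 in yng embryos at 36 hpf (adjusted p = 0.00111). Hsp90 and Hsp70 genes have near-identical copies, which probe sets may not separate. In the Fkbp family, of 9 genes besides fkbp5, 0, 2, 0 and 1 passed, against the same shares of all probe sets. At an unadjusted p under 0.05 the counts were 2, 3, 4 and 3. Those past the threshold were fkbp4 and, in retinas at 52 hpf, fkbp10b, an endoplasmic reticulum member, with -0.69 (adjusted p = 0.0135). fkbp10b read 16.3 to 21.6 in WT and 2.86 to 7.86 in yng retinas, levels not shown to be above background, so the size depends on the offset.

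Genes known to respond to glucocorticoids moved both ways. The list was not split by the direction of the known response, so nothing on receptor activity is read from these directions. Of 41 listed 30 were measured besides fkbp5. In retinas 3 were higher and 4 lower at 36 hpf, and 5 higher and 3 lower at 52 hpf. In embryos 5 were higher and 2 lower at 36 hpf, and 3 higher and 2 lower at 52 hpf. The shares of all probe sets that passed were 9.08% and 19.7% in retinas and 5.95% and 5.9% in embryos at these ages. Of these 30, klf9 came closest to fkbp5. klf9 encodes a Krüppel-like transcription factor whose gene is a target of the glucocorticoid receptor in mammals and fish. In WT embryos it read 305, 292 and 316 at 36 hpf and 400, 502 and 345 at 52 hpf. In yng embryos it read 68.3, 72.2 and 41.6, then 105, 119 and 85.1. The genotypes stood apart at both ages.

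klf9 was lower in yng embryos, with -2.05 ± 0.15 at the younger age (adjusted p = 3.13e-08) and -1.82 ± 0.15 at the older (adjusted p = 1.06e-07). In retinas it was dim in both genotypes, from 45.7 to 59.5 in WT and from 29.1 to 39.6 in yng. The retina differences were -0.57 ± 0.15 at 36 hpf (adjusted p = 0.0215) and -0.40 ± 0.15 at 52 hpf (adjusted p = 0.0749), and the first was lost without WT or yng replicate 1 or 3. The genotype difference of klf9 was less negative in retinas. Its retina minus embryo value was 1.47 at 36 hpf (adjusted p = 0.000412), where 2.37% of probe sets passed. At 52 hpf the value was 1.42 (adjusted p = 0.000228), where 6.84% did. The gene was named by its genotype differences, which these values hold, so these adjusted p-values are not free of that choice. klf9 and fkbp5 differed in their course with age. In WT retinas klf9 was at -0.23 ± 0.15 (adjusted p = 0.258), where fkbp5 rose.

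**Figure D4:**
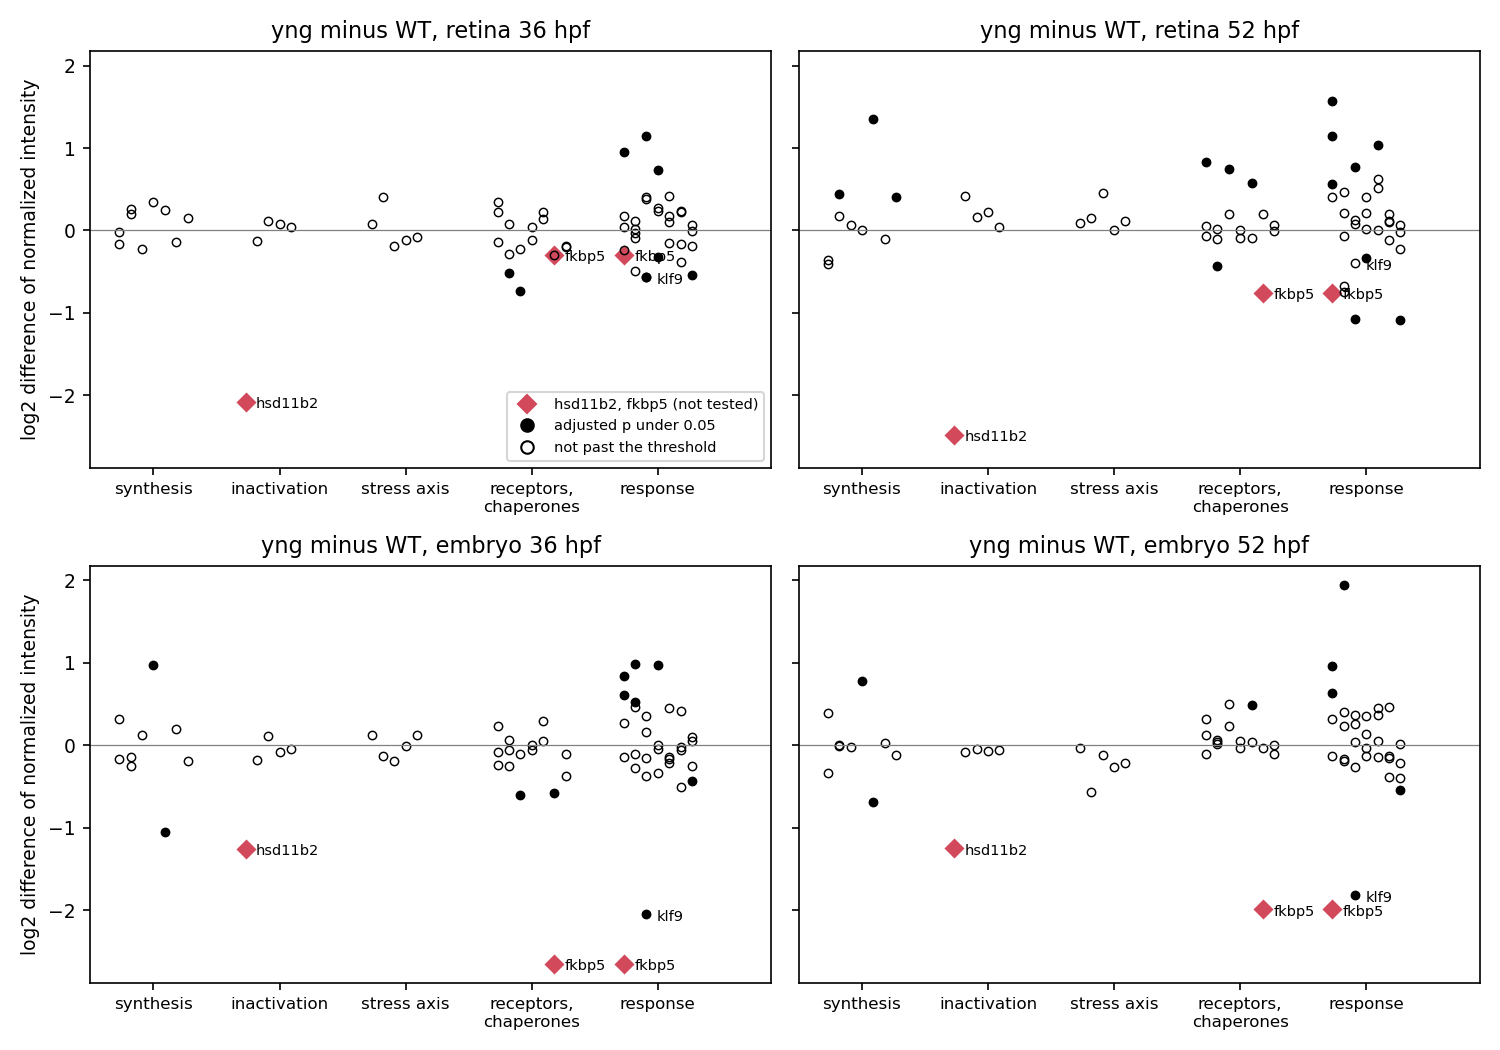
Each point is the yng minus WT log2 difference of normalized intensity for a gene of the 5 cortisol lists, in retinas (top) and embryos (bottom) at 36 and 52 hpf. Filled circles passed the threshold, open circles did not, and diamonds mark hsd11b2 and fkbp5, which were not tested. Among the circles klf9 is lowest in embryos, with -2.05 and -1.82.

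Other glucocorticoid response genes were higher in yng. txnipa, which encodes a thioredoxin-binding protein, rose by 0.95, 1.15 and 0.84 in retinas at 36 and 52 hpf and embryos at 36 hpf (adjusted p from 8.57e-05 to 0.00786). In embryos at 52 hpf it was at 0.64 (adjusted p = 0.0459), and leaving out single arrays raised that adjusted p to as much as 0.209, above the threshold for 17 of the 24. igfbp1a, an insulin-like growth factor binding protein, rose by 1.57 in yng retinas at 52 hpf (adjusted p = 3.12e-07) and by 0.96 in yng embryos at 52 hpf (adjusted p = 0.000594). pck1, an enzyme of gluconeogenesis, rose by 0.97 in yng embryos at 36 hpf (adjusted p = 0.00619), and mmp9, a matrix metalloproteinase, by 1.95 at 52 hpf (adjusted p = 3.35e-05). The brighter probe set of cebpd, a transcription factor gene, read 0 to 8.43 in WT and 14 to 42.6 in yng retinas at 36 hpf, and its difference of 1.15 (adjusted p = 0.00628) is set by the offset at such levels. Its other probe set was at -0.01 (adjusted p = 0.995). Lower in yng retinas at 52 hpf were foxo3b, a forkhead factor gene, with -1.07 (adjusted p = 1.96e-05), and anxa1a, an annexin gene, with -1.09 (adjusted p = 2.53e-05). The dimmer probe set of foxo3b was at 0.14 there (adjusted p = 0.684).

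Likeness over all 24 arrays was measured by Pearson correlation of normalized levels, as a description, since arrays of a group and of a genotype share their source. The gene most like fkbp5 was klf9 (r = 0.802, and 0.859 as deposited). Next came sst6.1, of the somatostatin family, manf, a secreted protein of the endoplasmic reticulum stress response, capn2l, a calpain protease gene, and si:ch211-76l23.4, with r from 0.768 to 0.793. Of these sst6.1 and capn2l had genotype differences of -0.10 to 0.00 in retinas, but -2.19 and -2.40 for sst6.1 and -2.95 and -3.22 for capn2l in embryos at 36 and 52 hpf. Retina levels of sst6.1 and capn2l are not given here, so these small values do not show that the genes were expressed there. si:ch211-76l23.4 lies on the chromosome of smarca4a. Over the 8 group means the order changed to ddost, pdia6, spryd7b, si:ch211-152c8.5 and manf, with r from 0.86 to 0.923, and only manf was in both.

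**Figure D5:**
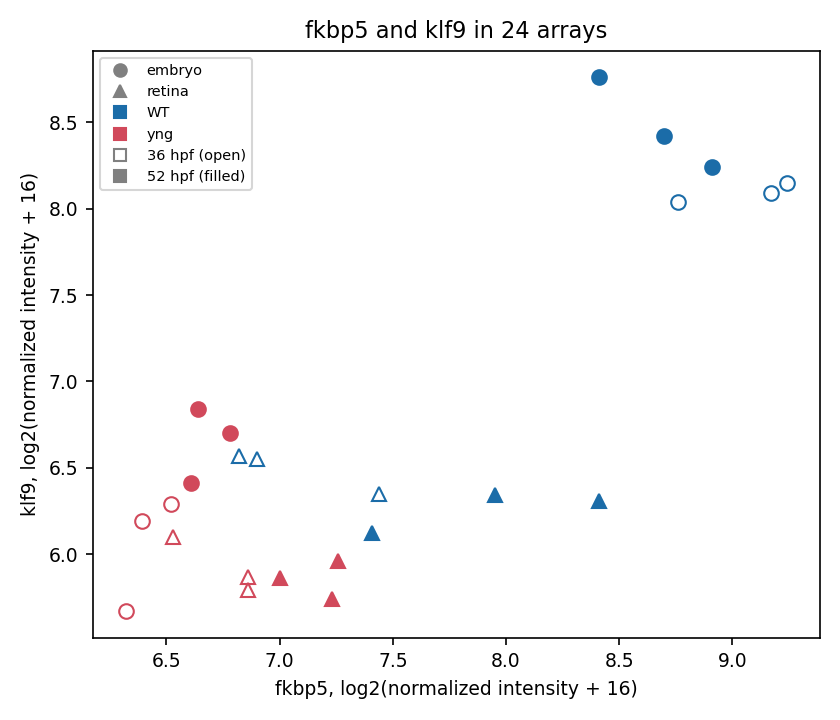
Each point is an array, with log2 normalized intensity (offset 16) of fkbp5 on the x axis and of klf9 on the y axis, circles for embryos, triangles for retinas, open for 36 hpf and filled for 52 hpf. The 6 WT embryo arrays lie apart at the top right, and among the other 18 arrays WT retinas spread along the fkbp5 axis with little change in klf9.

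The genes most like hsd11b2 were others. They were lrrc4.1 (r = 0.952), which encodes a synaptic adhesion protein in mammals, dnajc18, a DnaJ co-chaperone gene, stox2a, ablim1a, an actin-binding LIM protein gene, and zfyve28, with r from 0.923 to 0.942. Over the 8 group means rnf130 replaced ablim1a. lrrc4.1 had genotype differences of -2.05 and -3.92 in retinas and of -1.98 and -1.66 in embryos at 36 and 52 hpf. None of the 6 lies on the chromosome of smarca4a. The correlation of hsd11b2 with fkbp5 was 0.665, which placed hsd11b2 at rank 37 for fkbp5, and fkbp5 at rank 311 for hsd11b2.

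Neither hsd11b2 nor fkbp5 lies on the chromosome of smarca4a in the GRCz12tu assembly, and neither does klf9. The measured genes next to them, chosen for this check after the data were seen, mostly did not pass. The shares of all probe sets that passed were 9.08% and 19.7% in retinas and 5.95% and 5.9% in embryos at 36 and 52 hpf. With so few neighbours few calls are to be expected at those shares, and nothing is read from the counts. Around hsd11b2, 6 neighbours with 7 probe sets gave 28 tests over the 4 genotype comparisons, of which 1 passed, atp6v0d1, a proton pump subunit gene, with -0.51 in retinas at 52 hpf (adjusted p = 0.00475). Around fkbp5, 6 neighbours gave 24 tests and by limma 0 passed, with 2 at an unadjusted p under 0.05. These neighbours include green opsin genes of near-identical sequence, which probe sets may not separate.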

How the data were processed

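RNA of 24 pools in 8 groups of 3 was measured on Affymetrix zebrafish arrays. The authors deposited a linear intensity for each probe set, between 0 and 20110. The sources used here do not give how probes were summarised and arrays scaled. The text records of each array gave only hybridization day, fluidics station, module and wash errors, of which 1 was recorded, for yng retina 36 hpf replicate 1.

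Of 15617 probe sets 115 controls were removed. Of the 15502 tested, 10795 had 1 symbol, 135 several and 4572 none. Symbols were updated by gene ID with RefSeq's GRCz12tu annotation, which changed 1. All 24 arrays were quantile normalized together, and log2(value + 16) was taken. limma 3.58.1 in R 4.3.3 fitted 1 mean per group (16 residual degrees of freedom), with two-sided p-values adjusted per comparison. The p-values measure the spread between pools labelled as biological replicates, which within a group were also hybridized on different days. Without a block, pool and day are not separated in that spread. Tables and plots used Python 3.11.15, pandas 2.3.3 and matplotlib 3.10.9. The fit was tested on simulated data.

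The members and lists were chosen with earlier results of these data known. Besides hsd11b2, fkbp5, nr3c1, nr3c2 and smarca4a, genes were named by rule: up to 4 of each list per genotype comparison with the largest difference past the threshold, and the 5 most like each member over the arrays and over the group means. The rule also picked genes not described above. They were hsp90aa1.1 in retinas at 36 and 52 hpf (-0.52 and -0.43) and, in retinas at 52 hpf, hspa8b (0.75), dhrs9 (0.48) and hsd17b12b (-0.30). The calls of hsp90aa1.1 and hspa8b were each lost without some single arrays. A gene with several probe sets was read from the brightest, and the text says where others disagree. Alternatives were the values as deposited, normalization within tissue, offsets 1 and 64, a filter at intensity 50, a variance trend, blocks of day or replicate number, only the groups compared, and each array left out. Markers were fixed lists, of which lens, pigment, blood, skin and skeleton, and liver, gut and yolk markers were checked too. Days 1 to 3 follow the replicate number, except WT embryo 52 hpf replicate 3 on day 4.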

Additional observations from a re-analysis of the deposited data

Results flagged for a closer look

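A test of the difference itself set the following apart, with limma's adjusted p over all probe sets. fkbp5 was chosen on these same arrays, and the other genes were named for their genotype differences, which their values here hold. The adjusted p-values are thus not free of that choice. The change of fkbp5 with age in WT was 1.25 higher in retinas than in embryos (adjusted p = 0.00538), and its values by array are above.

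For klf9 the yng minus WT difference was less negative in retinas than in embryos, by 1.47 at the younger age (adjusted p = 0.000412) and by 1.42 at the older (adjusted p = 0.000228). For cyp17a1 the retina minus embryo value was 1.30 at 36 hpf (adjusted p = 0.00266) and 2.04 at 52 hpf (adjusted p = 1.07e-05). In retinas at 36 hpf cyp17a1 read only 2.85 to 7.74 in WT and 7.87 to 12.7 in yng. At 52 hpf it read 6.18 to 16.7 in WT and 42.9 to 62.9 in yng retinas. The WT retina levels and the yng ones at 36 hpf are not shown to be above background. The size of its differences thus depends on the offset. Its genotype difference in retinas was also 1.09 higher at 52 than at 36 hpf (adjusted p = 0.00727). This probe set of cyp17a1 may detect several transcripts. The dimmer probe set had genotype differences of -0.12 and 0.17 in retinas and -0.64 and -0.23 in embryos at 36 and 52 hpf. For hsd17b12a the genotype difference was 1.26 higher in retinas than in embryos at 52 hpf (adjusted p = 0.00155), and in retinas 0.84 higher at 52 than at 36 hpf (adjusted p = 0.0465). Of all probe sets 4.11% passed for the change of the genotype difference with age in retinas. For the genotype difference in retinas minus that in embryos 2.37% passed at 36 hpf and 6.84% at 52 hpf.

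The genotype difference in retinas was 0.92 higher at 52 than at 36 hpf for hsp90aa1.2 (adjusted p = 0.00793) and 1.81 higher for igfbp1a (adjusted p = 2.79e-05). At 52 hpf it was lower in retinas than in embryos for foxo3b, with -0.82 (adjusted p = 0.0212), and for mmp9, with -1.75 (adjusted p = 0.00358), where mmp9 was dim in retinas, from 20.2 to 67.4 at 52 hpf. The dimmer probe set of foxo3b did not follow, with genotype differences of 0.14 in retinas and 0.06 in embryos at 52 hpf. Each group had its own pair of fluidics station and module, which cannot be told apart from these differences.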

How the results depend on the processing

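The filter on low values and the mean-variance trend changed no call and no direction of hsd11b2, fkbp5 or the counts of cortisol genes. As deposited, without quantile normalization, the tissue difference turned to -0.26 for hsd11b2 in WT at 52 hpf and to -0.12 for fkbp5 in yng at 36 hpf, was 0.04 for fkbp5 in yng at 52 hpf, and the time by tissue difference of hsd11b2 in WT passed with 0.86. It gave 5 cortisol genes in embryos at 52 hpf, and lost the calls of fkbp4 (adjusted p = 0.0521) and txnipa (adjusted p = 0.061) there. Normalization within each tissue gave 5 cortisol genes in retinas at 36 hpf.

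With offset 1, hsd11b2 differed between genotypes by -2.80 and -2.86 in retinas at 36 and 52 hpf, the change of that difference with age was -0.06, and retina minus embryo was -1.37 and -1.48; 4 cortisol genes passed in embryos at 52 hpf. With offset 64 hsd11b2 gave -1.22 and -1.80 in retinas, -0.92 and -0.98 in embryos, -0.29 and -0.82 for retina minus embryo, 0.36 with age in yng retinas and 0.63 for time by tissue in WT (adjusted p = 0.0413). fkbp5 then gave -2.13 and -1.60 in embryos, 1.91 for retina minus embryo at 36 hpf and 0.35 between tissues in yng at 52 hpf (adjusted p = 0.0617). A larger offset shrinks differences at low intensity by construction.

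The labels do not say that replicate numbers pair arrays. After removal of group means, arrays of the same number correlated with a median of 0.331 and a lowest value of 0.0743 over 84 pairs, against a median of -0.169 for other numbers, and 24 of 24 arrays matched their own number best. With the replicate block, hsd11b2 passed for time by tissue in WT (0.79), and 14 and 13 cortisol genes passed in retinas at 36 hpf and embryos at 52 hpf. The block changed no other call of hsd11b2 or fkbp5. It raised the calls over all probe sets from 1408, 3057, 922 and 915 to 2865, 4818, 2247 and 2116 in retinas and embryos at 36 and 52 hpf. Hybridization day as a block gave 0.78, 14 cortisol genes in retinas at 36 hpf, and 2793, 4770, 2198 and 1458.

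With only the groups compared in the fit, which has fewer residual degrees of freedom, fkbp5 with age in WT retinas (0.87) and hsd11b2 between tissues in WT at 36 hpf (-0.56) were not past the threshold. Then 0 cortisol genes passed in retinas at 36 hpf and 7 in embryos at 36 hpf, with 331 and 449 probe sets in all. For the counts of cortisol genes, all alternatives but the values as deposited and the replicate block were chosen after seeing the data.

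Leaving out each array in turn, hsd11b2 ran from -2.24 to -1.82 in retinas at 36 hpf, and from -0.82 to -0.40 between tissues in WT at 36 hpf. Its genotype difference changed with age in retinas by -0.66 to -0.25, its retina minus embryo value at 36 hpf was -0.98 to -0.56, and its time by tissue value in WT was 0.63 to 1.05, which passed without WT retina 36 hpf replicate 2 or WT retina 52 hpf replicate 3. fkbp5 between tissues in yng at 52 hpf was 0.44 to 0.57. Cortisol genes past the threshold numbered 4 to 10 in retinas at 36 hpf (fewest without WT replicate 1), 6 to 11 in embryos at 36 hpf (fewest without WT replicate 3) and 4 to 9 in embryos at 52 hpf, where every array compared moved the count by over 1.5 times. With 3 arrays per group and no detection calls, small differences of dim genes cannot be told from noise.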
